A study of Mus musculus with 6 samples.

Results

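The Mef2 family (Mef2a, Mef2b, Mef2c and Mef2d) was followed in cultured mouse satellite cells (SCs), the muscle stem cells that rebuild myofibers, after conditional loss of NF-YA. NF-YA is the subunit through which the trimeric factor NF-Y recognises the CCAAT box. All 4 genes with one of these symbols were taken, of 35976 genes in the deposited tables, with all 44 of their transcripts, of 106521 transcripts. RNA-seq libraries of 3 NF-YAcKO and 3 NF-YAfl/fl SC cultures were compared. NF-YAcKO mice carried floxed NF-YA alleles and Pax7-CreERT2, so that tamoxifen removed the floxed segment in Pax7-expressing cells. NF-YAfl/fl mice carried the same floxed alleles without Cre and also received tamoxifen, which the labels give as 20 mg/ml at an age of 5 to 7 weeks and the study's Methods as 5 injections at 6 to 8 weeks. Muscles were taken 7 days later, other cell types were depleted on magnetic beads, and SCs were grown for 4 days before RNA was extracted.

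MEF2 proteins are MADS-box transcription factors that bind A/T-rich sites in the control regions of muscle genes. They act together with the myogenic bHLH factors of the MyoD family, are held inactive by class IIa histone deacetylases, and are activated through calcium-dependent and p38 kinases. Mef2a, Mef2c and Mef2d transcripts also choose between a pair of mutually exclusive coding exons, named α1 and α2, and may include a short exon named β. Forms with the α2 exon of Mef2d and with β exons are known from differentiated striated muscle.

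The libraries held between 26936230 and 41118984 expected counts, of which the 4 Mef2 genes received 5462 to 9411 in NF-YAcKO and 24059 to 30438 in NF-YAfl/fl. The entry that the authors added for the deleted Nfya allele had expected counts of 189, 312 and 393 in the NF-YAcKO libraries and 0 in each NF-YAfl/fl library. Total Nfya RNA differed by -0.06 on the log2 scale (standard error, SE, of 0.18; edgeR FDR = 0.814). Not all Nfya RNA of NF-YAcKO was assigned to the deleted entry. The Nfya transcript NM_001110832.1 had expected counts of 248, 492 and 392 in NF-YAcKO and 324, 494 and 431 in NF-YAfl/fl (edgeR FDR = 0.218). Xist, the X inactivation RNA, had 26727 to 35840 counts in NF-YAcKO libraries and 8 to 14 in NF-YAfl/fl libraries, and the Y-linked Ddx3y had 2 to 3 and 2317 to 2860, whereas the Methods describe male mice. Sex-linked expression and genotype therefore cannot be told apart in any value given here. Summed over 10 macrophage markers, the level was 132 to 254 CPM (counts scaled to a library of equal size) in NF-YAcKO and 6.01 to 15.3 CPM in NF-YAfl/fl, with all 10 markers above every NF-YAfl/fl library in every NF-YAcKO library. The 8 myogenic markers summed to 1988 to 2273 CPM in NF-YAcKO and 2850 to 4975 CPM in NF-YAfl/fl, but they did not all lie on the same side. Pax7, which marks satellite cells (171 ± 28.4 CPM in NF-YAcKO and 88.7 CPM in NF-YAfl/fl on average, edgeR FDR = 0.00624, log2 fold change 0.94, not called), and Vcam1 were higher in every NF-YAcKO library, Des, Cdh15 and Itga7 were lower in every one, and Myf5, Myod1 and Chrna1 overlapped. Endothelial (6 markers), fibroblast and fibro/adipogenic (6 markers) and Schwann cell markers (5 markers) summed to 13.3 to 18.1, 1311 to 1646 and 56.3 to 67.9 CPM in NF-YAcKO. The corresponding NF-YAfl/fl sums were 4.17 to 8.15, 386 to 1616 and 116 to 207 CPM. The 6 markers of pericytes and smooth muscle summed to 139.9 to 193 CPM in NF-YAcKO and 196 to 426 CPM in NF-YAfl/fl. The sums hide opposite members here too, as 3 Schwann cell markers and 1 of pericytes and smooth muscle were above every NF-YAfl/fl library in every NF-YAcKO library, and 1 and 3 were below. Of the endothelial and of the fibroblast and fibro/adipogenic markers, 4 and 2 were above in this way, and 0 were below in either list. No marker of these lists stayed at or under 3 counts in all 6 libraries. The part of these other cells in the results was not tested, and in bulk RNA fewer differentiating cells and less RNA per cell cannot be told apart.

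RNA of 3 of the 4 Mef2 genes was lower in NF-YAcKO SCs, and that of Mef2b was close to the limit of detection in both genotypes. A gene was called changed at an edgeR FDR under 0.01 with a log2 fold change (NF-YAcKO over NF-YAfl/fl) below -1 or above 1. By this rule 7.67% of the 17348 tested genes were called lower and 4.65% higher, and DESeq2 with the same thresholds called 10.4% lower and 5.68% higher. No Mef2 gene was called higher by edgeR or DESeq2, and 0 had an unadjusted p under 0.05 in that direction. Levels are given below as TPM (transcripts scaled to their length and to an equal total per library), which allows them to be set side by side between genes.

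Mef2c, the family member tied to early skeletal and cardiac myogenesis, had the largest difference of the 4. Its level was 60.0, 50.1 and 37.4 TPM in the NF-YAfl/fl libraries and 1.38, 1.22 and 1.69 TPM in the NF-YAcKO libraries. Every NF-YAcKO value lay far under the lowest NF-YAfl/fl value, and the mean fell from 49.2 ± 11.3 TPM to 1.43 ± 0.239 TPM (SD, n = 3), a 34.4-fold difference. The log2 fold change was -5.05 (SE 0.21, edgeR FDR = 5.06e-05). Mef2c spans chromosome 13 from 83504017 to 83667079 on the plus strand of GRCm38 (mm10).

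Mef2a, which is widely expressed and is needed for muscle regeneration, was the most abundant member in both genotypes. The NF-YAfl/fl libraries held 101, 102 and 111 TPM and the NF-YAcKO libraries 26.9, 24.1 and 35.4 TPM. The 2 groups did not overlap, with means of 104 ± 5.40 TPM and 28.8 ± 5.87 TPM (SD, n = 3), a 3.63-fold difference. The log2 fold change was -1.82 (SE 0.21, edgeR FDR = 0.00118). Mef2a lies on the minus strand of chromosome 7 between 67231163 and 67376456.

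Mef2d, expressed from proliferating myoblasts onwards, was also called lower. Its level was 23.1, 23.0 and 25.7 TPM in NF-YAfl/fl and 8.62, 6.37 and 8.07 TPM in NF-YAcKO. Here too the groups did not overlap, with means of 23.96 ± 1.53 TPM and 7.69 ± 1.17 TPM (SD, n = 3), a 3.12-fold difference. The log2 fold change was -1.59 (SE 0.19, edgeR FDR = 0.00131). This call was lost without NF-YAcKO replicate 2, where the log2 fold change was -1.57 and the edgeR FDR 0.01. Mef2d lies on chromosome 3 from 88141941 to 88172091 on the plus strand.

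Mef2b, the most divergent member and known mainly from germinal centre B cells, had expected counts of 4, 0 and 12 in NF-YAfl/fl and 0.15, 14 and 5 in NF-YAcKO. The ranges overlapped, none of the levels exceeded 0.33 TPM, and a difference was not detectable at this depth (log2 fold change -0.19, SE 1.22, edgeR FDR = 0.914). Mef2b (chromosome 8, 70152761 to 70167488, plus strand) adjoins Borcs8, and a readthrough entry joining both genes received 6.96 counts in 1 NF-YAcKO library and 0 in the other 5 libraries.

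**Figure D1:**
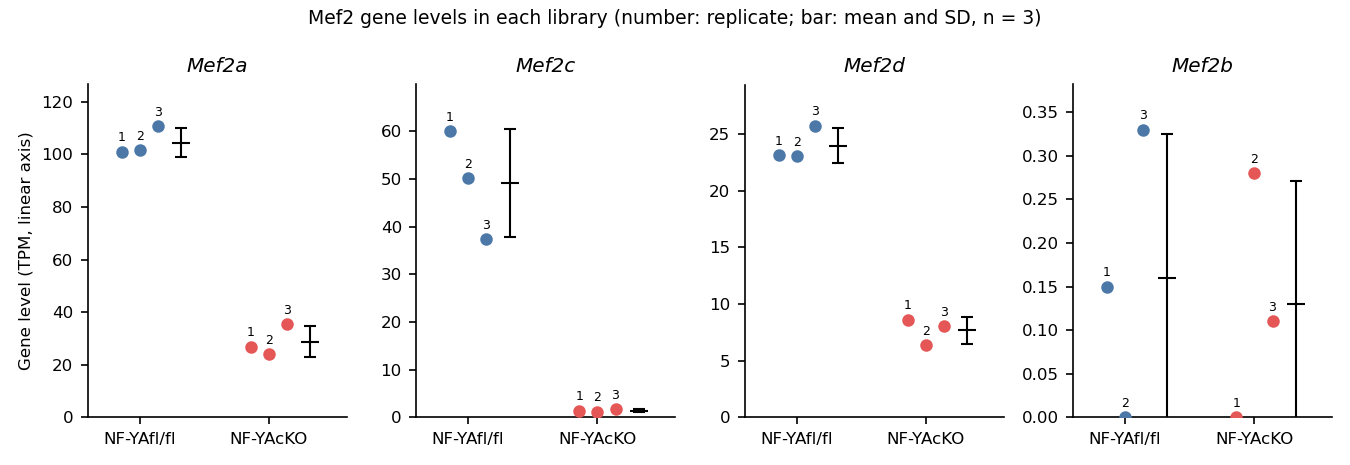
Gene levels of Mef2a, Mef2c, Mef2d and Mef2b in TPM on linear axes, with 1 point per library numbered by replicate, in 3 NF-YAfl/fl (blue) and 3 NF-YAcKO (red) libraries; the bar beside each group is the mean and SD. For Mef2a, Mef2c and Mef2d all red points lie under all blue points, while Mef2b stays at or under 0.33 TPM and overlaps.

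The make-up of the family RNA also differed between genotypes. The summed level of the 4 genes was 184, 175 and 174 TPM in NF-YAfl/fl and 36.9, 31.9 and 45.2 TPM in NF-YAcKO, a 4.67-fold difference of the means (178 ± 5.74 and 38.0 ± 6.71 TPM, SD, n = 3). Of this sum, Mef2c made up 27.6% ± 5.62 in NF-YAfl/fl and 3.77% ± 0.0481 in NF-YAcKO. The share of Mef2a was 58.8% ± 4.41 in NF-YAfl/fl and 75.5% ± 2.63 in NF-YAcKO, and that of Mef2d 13.5% ± 1.15 and 20.4% ± 2.78 (SD, n = 3 in each case). The order by mean TPM was Mef2a, Mef2c, Mef2d and Mef2b in NF-YAfl/fl, and Mef2a, Mef2d, Mef2c and Mef2b in NF-YAcKO, with no overlap between neighbours in either order. For the sum and for the shares of Mef2a, Mef2c and Mef2d, the genotypes did not overlap, and each exact permutation test (two-sided) gave p = 0.1, the smallest that 3 libraries against 3 allow.

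The deposited transcript estimates were then used to ask which Mef2 forms the cells made. Of the 44 Mef2 transcripts, 13 had 0 counts in all libraries, 23 passed the count filter and 22 reached 5% of their gene's TPM in at least 1 library. In 10 transcripts the exon structure could be read from the GENCODE annotation of GRCm38, of which 4 belong to Mef2a, 3 to Mef2d, 2 to Mef2c and 1 to Mef2b. RSEM divides reads between overlapping transcripts, so that each value is an estimate of a split.

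The exons that distinguish these transcripts are shown because the differences between genotypes fell on them. The α1 and α2 exons of Mef2d follow each other on chromosome 3, at chr3:88158034-88158171 (138 nt) and chr3:88158221-88158355 (135 nt). Both are coding and hold whole codons (46 and 45), and 51.4% of 144 aligned positions were identical between them. They are printed 5′ to 3′ from the plus strand of GRCm38, with the bases that differ in the alignment or have no partner in capitals.
Mef2d α1 exon: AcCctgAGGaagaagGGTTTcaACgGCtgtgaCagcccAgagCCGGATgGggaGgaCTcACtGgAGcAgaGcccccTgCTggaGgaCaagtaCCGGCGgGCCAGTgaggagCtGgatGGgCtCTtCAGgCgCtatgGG
Mef2d α2 exon: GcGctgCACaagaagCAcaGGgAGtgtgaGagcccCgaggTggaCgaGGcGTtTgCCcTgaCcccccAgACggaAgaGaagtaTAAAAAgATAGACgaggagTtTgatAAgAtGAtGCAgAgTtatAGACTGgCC

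The β exons are short insertions further downstream, 24 nt (8 codons) in Mef2a at chr7:67244521-67244544 on the minus strand and 21 nt (7 codons) in Mef2d at chr3:88161781-88161801 on the plus strand. They are shown in capitals within 15 nt of the flanking exons on each side, read from the spliced transcripts NM_001033713.2 and NM_001310587.1.
Mef2a β exon: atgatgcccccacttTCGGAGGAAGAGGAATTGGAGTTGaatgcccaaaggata
Mef2d β exon: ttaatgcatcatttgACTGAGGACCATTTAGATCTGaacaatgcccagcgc

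In Mef2a, the forms holding the 24 nt β exon had a share near 0 in NF-YAcKO. The transcript NM_001033713.2, which holds α1 and β, made up 48.9%, 42.0% and 44.3% of the Mef2a TPM in NF-YAfl/fl and 0%, 1.51% and 0.14% in NF-YAcKO. The transcript NM_001291195.1, which holds α1 and lacks β, made up 0.01%, 9.42% and 6.09% in NF-YAfl/fl and 66.5%, 58.2% and 64.2% in NF-YAcKO. Among the 4 Mef2a transcripts of known structure, the share of TPM with β was thus 72.1%, 62.3% and 72.3% in NF-YAfl/fl and 0%, 1.75% and 0.167% in NF-YAcKO (68.9% ± 5.72 and 0.639% ± 0.965, SD, n = 3; two-sided exact permutation test, p = 0.1, the smallest possible). These 4 transcripts accounted for 65.5% ± 3.68 of the Mef2a TPM in NF-YAfl/fl and 86.0% ± 1.70 in NF-YAcKO (SD, n = 3). The remainder, most of it the predicted transcript XM_006540685.3 (23.1%, 21.1% and 27.4%, against 9.58%, 13.0% and 12.7%), had no matched exon structure, and whether it holds β was not tested. Of this remainder, NM_001291196.1 (1.64%, 1.6% and 2.11%, against 1.09%, 1.02% and 0.76%) had an annotation entry but was left out because its length did not match. As a share of all Mef2a TPM, the forms known to hold β made up 45.1% ± 3.55 in NF-YAfl/fl and 0.55% ± 0.834 in NF-YAcKO (SD, n = 3).

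The pair of mutually exclusive exons of Mef2a (α1 of 132 nt at chr7:67268269-67268400 and α2 of 138 nt at chr7:67268067-67268204, 54.4% of 138 aligned positions identical) did not separate the genotypes among transcripts of known structure. The α2 exon was in 27.9%, 23.7% and 17.8% of the TPM of known structure in NF-YAfl/fl and in 24.4%, 30.2% and 23.9% in NF-YAcKO. These ranges overlapped (difference 3.05 percentage points, exact permutation test, two-sided, p = 0.4). As a share of all Mef2a TPM, a denominator chosen after seeing the data, the genotypes did not overlap for either exon. The α1 exon was then in 48.9%, 51.4% and 50.4% in NF-YAfl/fl and 66.5%, 59.7% and 64.3% in NF-YAcKO, and α2 in 18.9%, 15.98% and 10.9% and in 21.4%, 25.9% and 20.2% (exact permutation test, two-sided, p = 0.1 for each, the smallest possible). Both exons thus had a higher share in NF-YAcKO on this scale, as did the 4 transcripts of known structure together. The α2 transcripts NM_001291191.1 and NM_001291192.1 had identical estimates in every library and cannot be told apart.

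In Mef2d, an α2 form led in NF-YAfl/fl and an α1 form in 2 of 3 NF-YAcKO libraries. The α2 transcript NM_001310593.1 had expected counts of 1190, 1250 and 1647 in NF-YAfl/fl and 34.7, 137 and 77.3 in NF-YAcKO, or 42.0%, 42.1% and 38.7% against 2.78%, 9.55% and 4.71% of the Mef2d TPM. It was the only Mef2 transcript called lower (log2 fold change -4.43, SE 0.46, edgeR FDR = 0.00764), where 1.01% of 45367 tested transcripts were called lower. The α1 transcript without β, NM_133665.4, had expected counts of 802, 493 and 1094 in NF-YAcKO and 0, 0.02 and 0 in NF-YAfl/fl. With each NF-YAfl/fl library set to a floor of 3 counts, its level was 185.5-fold higher in NF-YAcKO. The floor stands for depth and does not cover error in how reads shared with other Mef2d transcripts were divided. NM_133665.4 was the only Mef2 transcript called higher (edgeR FDR = 0.00903), where 0.39% of the tested transcripts were called higher. Neither call held when any 1 of the 6 libraries was left out, with an edgeR FDR of 0.0167 to 0.0443 for the former and 0.0151 to 0.0475 for the latter.

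The remaining Mef2d transcript of known structure, NM_001310587.1, holds α1 and the 21 nt β exon. It made up 22.6%, 6.75% and 20.6% of the Mef2d TPM in NF-YAfl/fl and 0% in all 3 NF-YAcKO libraries. Against the same floor, and with the same limit, its level was 205-fold lower in NF-YAcKO (edgeR FDR = 0.0216, not called). Over the 3 transcripts, α2 was in 65.0%, 86.2% and 65.3% of the TPM in NF-YAfl/fl and in 4.16%, 21.8% and 6.60% in NF-YAcKO, with NF-YAcKO replicate 2 the highest of its group and still under every NF-YAfl/fl library. The means were 72.2% ± 12.2 and 10.9% ± 9.55 (SD, n = 3; two-sided exact permutation test, p = 0.1, the smallest possible). The share of β was 35.0%, 13.8% and 34.7% in NF-YAfl/fl and 0% in NF-YAcKO. None of the 3 transcripts holds α2 together with β. Whether a predicted Mef2d transcript holds both was not analysed, and to which transcripts reads from such a form were assigned was not tested. The 3 transcripts made up 57.6% ± 8.03 of the Mef2d TPM in NF-YAfl/fl and 60.8% ± 14.7 in NF-YAcKO (SD, n = 3), and their ranges overlapped. The predicted transcript XM_006501089.2, whose exons were not analysed here, held 19.5%, 28.3% and 14.0% in NF-YAfl/fl and 20.5%, 40.3% and 18.6% in NF-YAcKO.

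**Figure D2:**
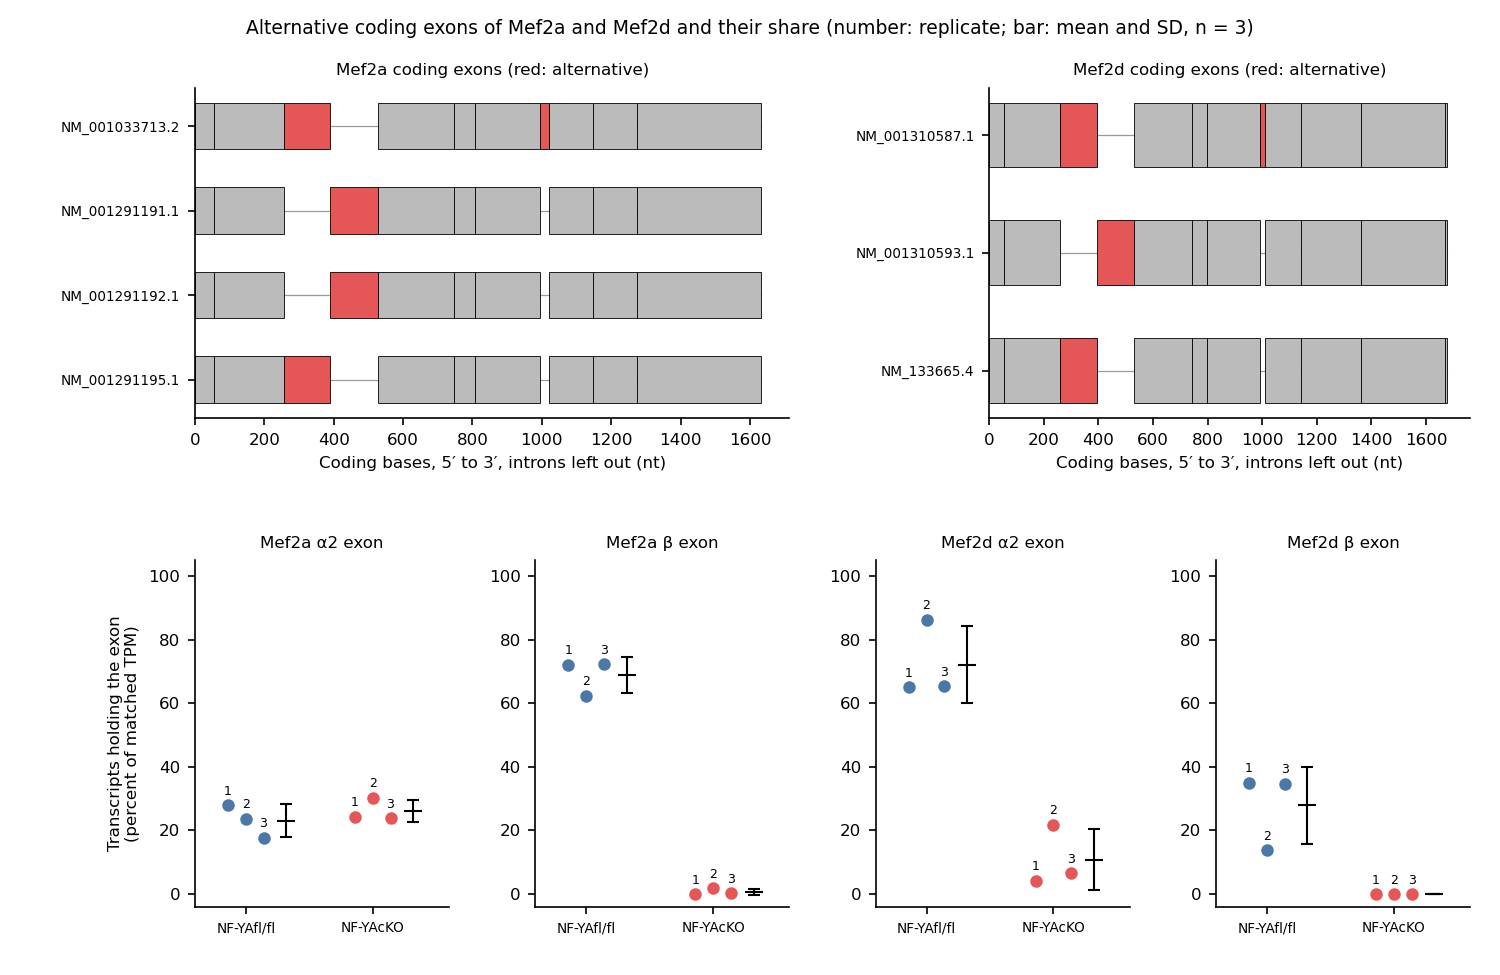
Upper row, coding exons of the Mef2a (left) and Mef2d (right) transcripts of known structure, drawn to scale in nucleotides with introns left out and alternative exons in red. Lower row, the percent of the TPM of these transcripts that comes from forms holding the named exon, with 1 point per library numbered by replicate and the mean and SD beside each group (n = 3); the genotypes overlap for Mef2a α2 and are apart for Mef2a β, Mef2d α2 and Mef2d β.

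Mef2c forms were difficult to compare because so little Mef2c RNA was left. In NF-YAfl/fl, the α1 transcript NM_001170537.1 held 55.5%, 54.6% and 56.6% and the α2 transcript NM_025282.3 held 31.8%, 29.9% and 27.5% of the Mef2c TPM. In NF-YAcKO they held 0%, 25.7% and 19.3%, and 0%, 0% and 4.10%. The predicted transcript XM_006517130.2 took 78.6%, 43.2% and 66.1% in NF-YAcKO against 2.45%, 0% and 9.39% in NF-YAfl/fl, while its own level did not separate the genotypes (5.33 ± 1.62 and 10.4 ± 11.7 CPM, SD, n = 3; log2 fold change -0.97, SE 1.61, edgeR FDR = 0.816). The level of NM_001170537.1 was 1.31 ± 1.14 CPM in NF-YAcKO and 150 ± 32.4 CPM in NF-YAfl/fl, and that of NM_025282.3 was 0.135 ± 0.234 and 79.7 ± 22.2 CPM (SD, n = 3). Neither was called (edgeR FDR = 0.0225 and 0.0112). The Mef2c pair lies at chr13:83625265-83625408 (144 nt) and chr13:83625470-83625607 (138 nt), with 63.2% of 144 aligned positions identical. NM_001170537.1 and NM_025282.3 also differ in where their last coding segment starts, and their coding lengths are 1398 and 1296 nt. No exon share was formed, as NF-YAcKO replicate 1 had no counts in either transcript.

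**Figure D3:**
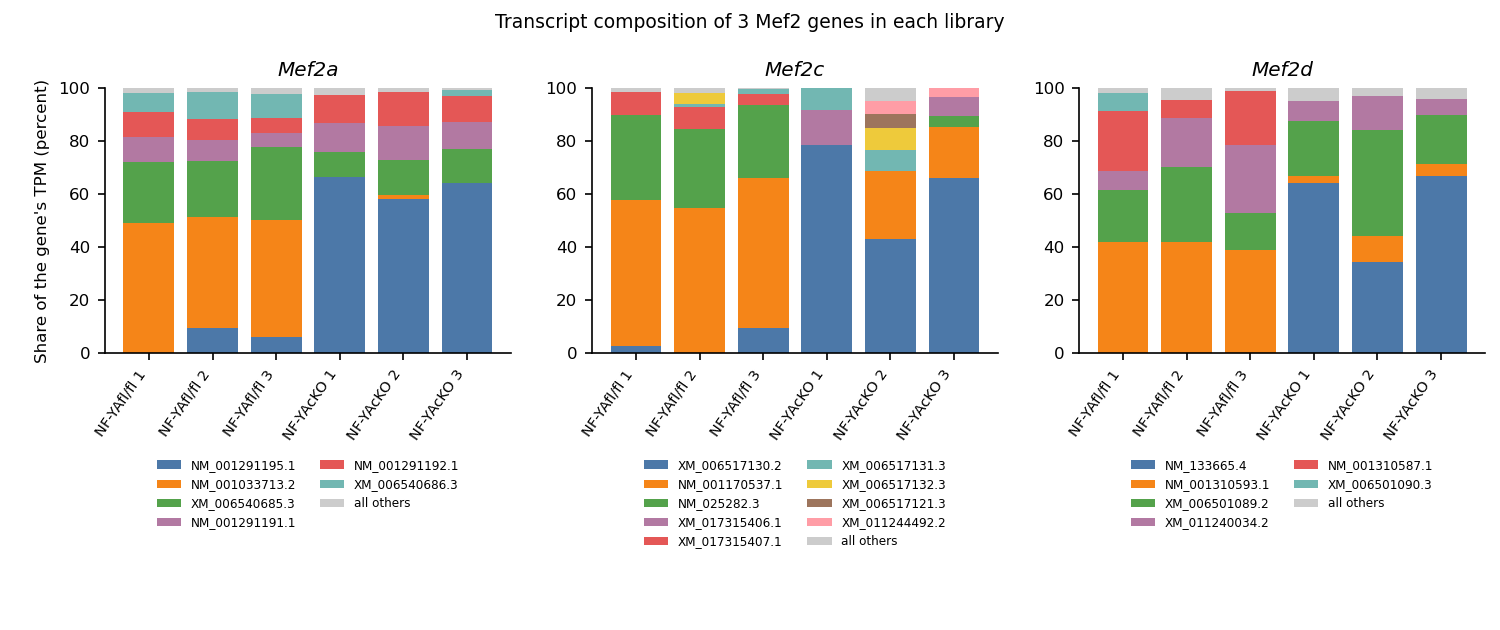
Stacked bars of the percent of each gene's TPM assigned to each transcript, for Mef2a, Mef2c and Mef2d in 3 NF-YAfl/fl and 3 NF-YAcKO libraries; transcripts that reach 5% in any library have a colour and all others are grey. The leading form changes from NM_001033713.2 to NM_001291195.1 in Mef2a and from NM_001170537.1 to XM_006517130.2 in Mef2c, and in Mef2d from NM_001310593.1 to NM_133665.4 except in NF-YAcKO replicate 2, where XM_006501089.2 leads with 40.3%.

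The other 21 Mef2 transcripts that passed the filter were not called by edgeR, while DESeq2 called 13 Mef2 transcripts lower and 1 higher, against 6.44% and 3.47% of all transcripts with an adjusted p, and edgeR called 1 in each direction. Over all 23 tested Mef2 transcripts the median log2 fold change was -2.66, against -0.05 over all tested transcripts. The Mef2a transcripts NM_001033713.2 (0.774 ± 1.12 CPM in NF-YAcKO and 227 ± 54.4 CPM in NF-YAfl/fl, edgeR FDR = 0.0196) and NM_001291195.1 (92.0 ± 17.7 and 25.0 ± 21.6 CPM, edgeR FDR = 0.511) were among them (SD, n = 3). As edgeR recovered only 26 of 199 changed transcripts in simulated counts, a transcript not called may still differ.

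Splicing regulators of muscle exons, which are RNA-binding proteins and the kinase Srpk3, were examined beside the exon shares. Of 10 such genes, 2 were called lower and 0 higher by edgeR, against 7.67% and 4.65% of all tested genes, and the list is too short for these counts to be told from those shares. DESeq2 called 4 lower and 1 higher, against 10.4% and 5.68%. At an unadjusted p under 0.05 in edgeR, 5 were lower and 2 higher, and the list's median log2 fold change was -0.32, against -0.02 over all tested genes. Srpk3, a muscle-specific kinase of splicing factors, had 24.4, 26.4 and 18.3 CPM in NF-YAfl/fl and 0.861, 0.724 and 0.893 CPM in NF-YAcKO (log2 fold change -4.80, SE 0.21, edgeR FDR = 5.7e-05). Rbfox2, which binds GCATG elements near muscle exons, had 541, 520 and 949 CPM in NF-YAfl/fl and 201, 208 and 218 CPM in NF-YAcKO (log2 fold change -1.68, SE 0.24, edgeR FDR = 0.00264). The Rbfox2 call was lost without NF-YAcKO replicate 1, 2 or 3, with an edgeR FDR of 0.014, 0.0168 and 0.0135. Ptbp1, a repressor of many muscle exons, had a log2 fold change of 0.95 (SE 0.13, edgeR FDR = 0.00234), short of the fold threshold, and passed it without NF-YAfl/fl replicate 2 (1.06, edgeR FDR = 0.00186). Mbnl1, Mbnl2 and Celf1 had log2 fold changes of -0.02, -0.41 and -0.23 and were not called (edgeR FDR = 0.954, 0.0517 and 0.285). Without NF-YAfl/fl replicate 2 the list had 2 genes called higher, Ptbp1 and Mbnl3, the latter named after its values were seen. Rbfox1 and Celf2, also named after their values were seen, were lower in every NF-YAcKO library. Their log2 fold changes were -2.23 and -1.07 (edgeR FDR = 0.015 and 0.0115). Mbnl3 was higher in every NF-YAcKO library (log2 fold change 1.16, edgeR FDR = 0.0245). DESeq2 called Rbfox1, Celf2 and Mbnl3, and edgeR with all libraries did not.

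Of 39 genes that act on or with MEF2, all tested, 6 (15.4%) were called lower and 0 higher by both edgeR and DESeq2. Over all tested genes the shares were 7.67% lower and 4.65% higher by edgeR and 10.4% and 5.68% by DESeq2. At an unadjusted p under 0.05 in edgeR, 18 were lower and 4 higher, and their median log2 fold change was -0.36, against -0.02 over all tested genes. The subgroups below hold 4 to 9 genes, too few for their counts to be read against a share of 7.67%. Among the 4 class IIa histone deacetylases, which bind and repress MEF2, 1 was called. This was Hdac9, itself a MEF2 target, at 7.49, 6.90 and 3.87 CPM in NF-YAfl/fl and 0.510, 0.893 and 1.08 CPM in NF-YAcKO (log2 fold change -2.86, SE 0.38, edgeR FDR = 0.00193), and it was not called without NF-YAcKO replicate 2 (edgeR FDR = 0.015) or with limma on log2(TPM + 1) (FDR = 0.0121). Among 9 kinases, the Ca2+/calmodulin-dependent kinases Camk2a (log2 fold change -5.22, SE 0.48, edgeR FDR = 0.000567) and Camk2b (-4.07, SE 0.29, edgeR FDR = 0.000243) were called lower. Camk2a fell from 18.3, 10.4 and 12.01 CPM to 0.287, 0.169 and 0.611 CPM. None of the 6 coactivators and none of the 7 calcineurin and NFAT genes was called by edgeR or DESeq2, with 3 and 2 lower at an unadjusted p under 0.05 in edgeR and 0 higher. Crebbp, an acetyltransferase that serves as a MEF2 coactivator, had a log2 fold change of -0.55 (SE 0.12, edgeR FDR = 0.0104).

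The bHLH partners split. Myog (myogenin), which marks entry into differentiation, had 965, 584 and 1450 CPM in NF-YAfl/fl and 10.7, 18.7 and 31.4 CPM in NF-YAcKO, and every NF-YAcKO library was under every NF-YAfl/fl library (log2 fold change -5.62, SE 0.54, edgeR FDR = 0.000683). Myf6 (MRF4), expressed in myofibers, was also called lower (-2.81, SE 0.27, edgeR FDR = 0.000704). Myod1, the determination factor, had 361, 295 and 1146 CPM in NF-YAfl/fl and 510, 627 and 565 CPM in NF-YAcKO. These ranges overlapped, and NF-YAfl/fl replicate 3 set the sign, as the log2 fold change was -0.08 with all libraries (SE 0.49, edgeR FDR = 0.908) and 0.78 without it (SE 0.13, edgeR FDR = 0.00305, not called). Without the same library Myf5, a gene outside the naming rule that was chosen after its values were seen, was called higher (log2 fold change 1.71, edgeR FDR = 0.00145, against 0.80 and 0.272 with all libraries). The E proteins Tcf4 and Tcf12, which pair with the myogenic bHLH factors, had log2 fold changes of -0.88 and -0.18 (edgeR FDR = 0.00208 and 0.274) and were not called. Tead1, a TEA-domain factor that binds MCAT elements of muscle genes, lay at the fold threshold (-1.03, SE 0.12, edgeR FDR = 0.00125). It was not called without NF-YAcKO replicate 2 or NF-YAfl/fl replicate 3, where the log2 fold change was -0.996 and -0.96, nor without a filter on low counts (-0.998) or with limma on log2(TPM + 1) and log2(TPM + 0.1) (-0.94 and -0.96, FDR = 0.015 and 0.0128), so that 8 of 13 alternatives kept the call.

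Most of 24 genes listed as MEF2 targets were lower in NF-YAcKO. The list was chosen with earlier results of these data known, so that its counts describe these genes and carry no test. Of 24 targets, all tested, 18 were called lower and 0 higher by edgeR (20 and 0 by DESeq2, and 0 higher at an unadjusted p under 0.05), against 7.67% of all tested genes lower, and the median log2 fold change was -4.50. Myog and Hdac9 are in this list as well as in that of the regulators, and Srpk3 is also in that of the splicing regulators. Of 9 sarcomere and filament genes 8 were called. Actc1, the α-cardiac actin of developing muscle, had 1377, 934 and 2019 CPM in NF-YAfl/fl and 3.48, 5.36 and 7.33 CPM in NF-YAcKO (log2 fold change -8.06, SE 0.46, edgeR FDR = 0.0001). Myom2 and Myom1, the M-band proteins that link thick filaments, had log2 fold changes of -7.22 (SE 0.38) and -6.30 (SE 0.29), and Lmod3, a nucleator of thin filaments, of -7.04 (SE 0.29), each with an edgeR FDR under 0.01.

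Of 6 targets in metabolism and calcium handling 5 were called. Casq1, the calcium store protein of the sarcoplasmic reticulum, had 214, 133 and 87.2 CPM in NF-YAfl/fl and 0.287, 0.459 and 0.658 CPM in NF-YAcKO (log2 fold change -8.23, SE 0.48, edgeR FDR = 0.00011). Hrc, a calcium-binding protein of the same compartment (log2 fold change -8.06, SE 0.35), and Mb, the oxygen store myoglobin (-7.59, SE 0.60), were of similar size. Ckm, muscle creatine kinase, had a log2 fold change of -6.12 (SE 0.73, edgeR FDR = 0.00147), and its call was lost without NF-YAcKO replicate 2 (edgeR FDR = 0.0128). Of 9 kinases and regulators among the targets 5 were called. Those not called include Klf4, Klf2, Nr4a1 and Jun, immediate-early or widely expressed factors, with log2 fold changes of -0.80, -0.69, -1.24 and -0.09 (edgeR FDR = 0.00407, 0.00739, 0.0292 and 0.759). Nr4a1 was called lower without NF-YAfl/fl replicate 3 (-1.49, edgeR FDR = 0.00564), and Jun had a log2 fold change of 0.20 without it.

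**Figure D4:**
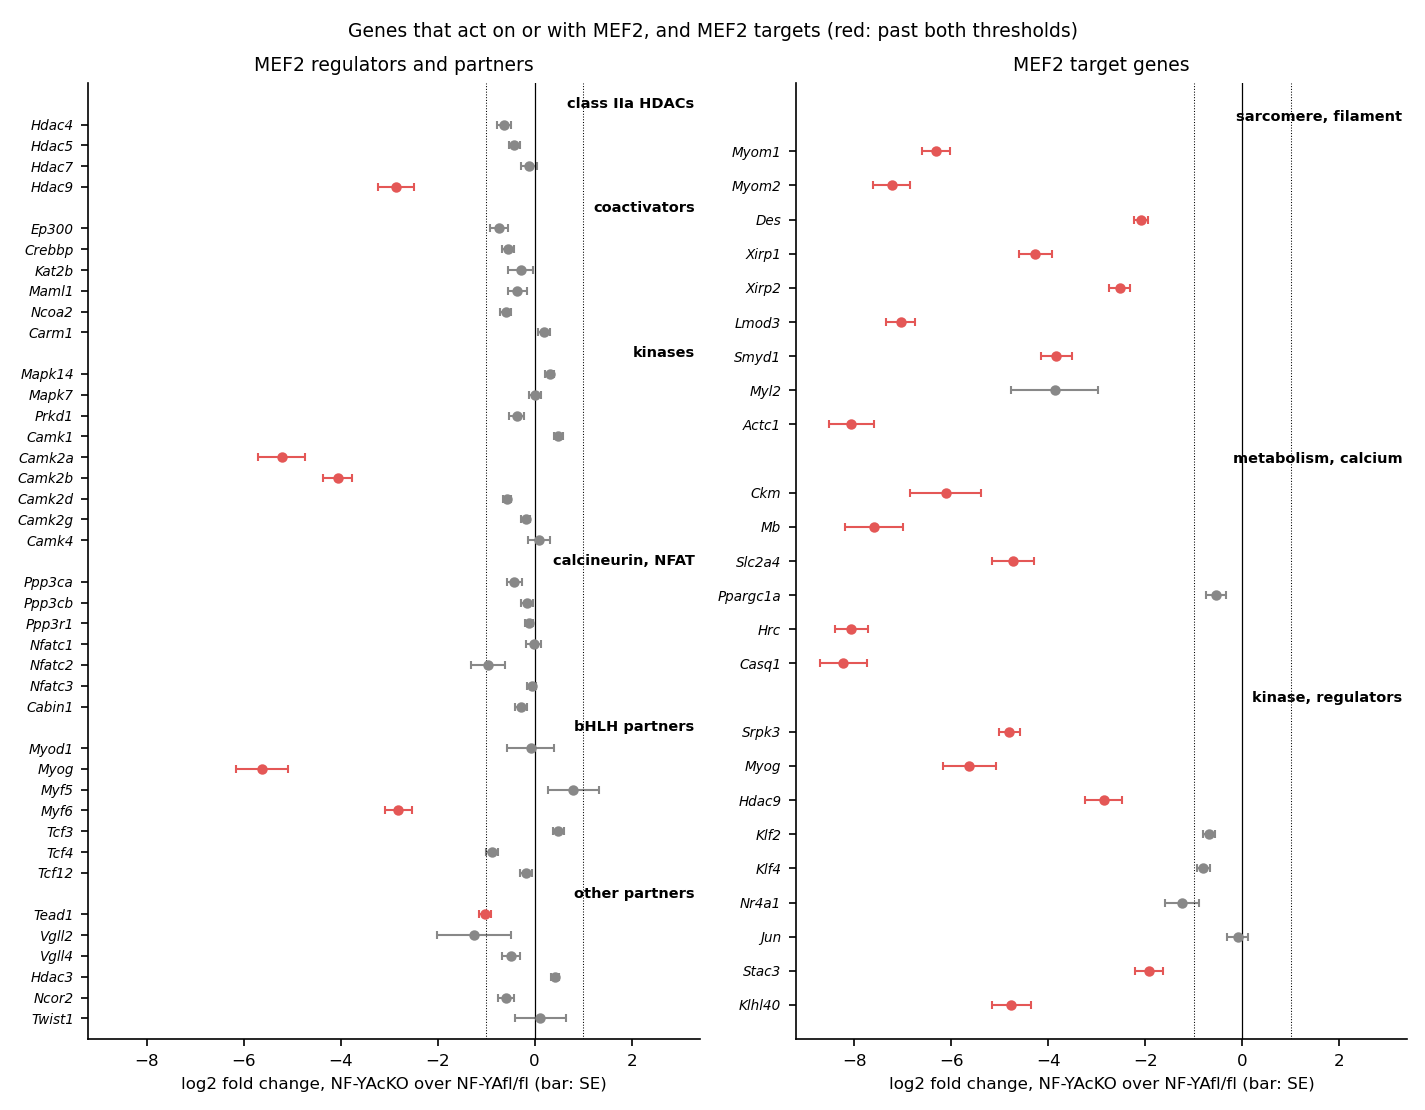
The log2 fold change (NF-YAcKO over NF-YAfl/fl) of 39 MEF2 regulators and partners (left) and 24 MEF2 targets (right), grouped by role, with the SE as a bar; red points passed both thresholds (FDR under 0.01 and a log2 fold change beyond the dotted lines at -1 and 1). On the left 6 genes are red and most others lie near 0, and on the right 18 are red and all 24 points lie under 0.

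The genes whose levels followed Mef2a, Mef2c and Mef2d most closely over the 6 libraries were looked up among 9454 genes that averaged 10 CPM or more, by Pearson's r of log2(CPM + 1). All 6 libraries share the split by genotype, so that r is a description and carries no test. Mef2b, close to the limit of detection, was not looked up. Among the nearest to Mef2c were Trim72 (r = 0.9997) and Tnnc1 (r = 0.9997), which encode a membrane repair protein and slow troponin C. For Mef2a the nearest were the clock gene Per2 (r = 0.9998), Rb1, the retinoblastoma gene (r = 0.9993), and Lama2, a laminin chain of the muscle basement membrane (r = 0.9985). For Mef2d they were Trim56 (r = 0.9995), Plekhh1 (r = 0.9988) and Flnc (r = 0.9984), which encodes the filamin of muscle. Closeness in pattern did not mean closeness in size, since Trim56 had a log2 fold change of -0.30 (edgeR FDR = 0.0551) and Mef2d one of -1.59.

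Since NF-Y binds CCAAT boxes, the Mef2 promoters were read for CCAAT on either strand (ATTGG when on the opposite one). The RefSeq windows reach from 250 bases before to 50 bases after a transcription start, and the build is GRCm38. Of 32851 such promoters in the mouse genome, 12289 (37.4%) held the pentamer, as did 4 of 6 Mef2 windows. It lay 62 bases before the Mef2d start at 88142372, 64 bases before the Mef2b start at 70152761, 51 and 37 bases before the Mef2c start at 83504034, and 83 bases before the Mef2c start at 83523656. Another Mef2c window (start at 83573607) and the single Mef2a window (start at 67372858) did not hold these letters. Sequences of 30 bases around the boxes nearest the starts are shown with the pentamer in capitals, to show that the boxes differ in strand and surroundings. They are a match of letters and say nothing of binding. The pentamer was present in windows of Mef2c and Mef2d, both called lower, and of Mef2b, where a difference was not detectable. It was absent from the window of Mef2a, which was called lower. A link between the pentamer and the RNA levels was not tested.
Mef2d, chr3:88142298-88142327: cggggccctcccATTGGccccctgcttgtc
Mef2c, chr13:83503971-83504000: gatagacttccgATTGGatattttccattg
Mef2c, chr13:83503985-83504014: tggatattttccATTGGaactaacagtgta
Mef2b, chr8:70152685-70152714: acctacttccacCCAATcagctcttgaggg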

How the data were processed

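RNA-seq libraries of 3 NF-YAcKO and 3 NF-YAfl/fl SC cultures were grouped by the genotype in their labels. The authors aligned stranded paired reads to the mm10 transcriptome with Bowtie2 and quantified them with RSEM, and the deposited tables give an expected count and a TPM value per gene and transcript. The deposited transcript tables add IsoPct, the percent of a gene's TPM that one transcript holds. RSEM splits shared reads, so that values of overlapping transcripts are estimates. Counts are not normalized, and TPM keeps no depth.

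Expected counts were rounded, and features whose count exceeded 10 in 2 or more libraries were tested with edgeR 4.0.16 (TMM, quasi-likelihood test with a single factor, genotype) in R 4.3.3, with Benjamini-Hochberg adjustment over all 17348 genes or 45367 transcripts. The thresholds (FDR under 0.01, log2 fold change beyond 1) and the filter are those of the study's Methods, which used DESeq2. The SE is the log2 fold change divided by the square root of F. CPM uses TMM-scaled library sizes, and 3 counts corresponded to 0.0705 to 0.115 CPM. Shares were compared with exact permutation tests (scipy 1.17.1). Exons were read from GENCODE, GRCm38, for transcripts whose RefSeq identifier and relative length both matched, and exon pairs were aligned with Biopython 1.88. Plots were drawn with matplotlib 3.10.9.

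Named were all members and, per list, up to 8 called genes in each direction with the largest change and at least 1 CPM, up to 4 genes not called with the highest CPM, and the 3 genes most like Mef2a, Mef2c and Mef2d. The members and lists were chosen with earlier results of these data known. Nothing in the labels says that libraries come from separate mice, so that p-values measure the spread between these libraries. No libraries were near-identical (chi-square per degree of freedom of 13.6 to 222 within genotypes). The coefficient of biological variation was 0.105 in NF-YAcKO and 0.31 in NF-YAfl/fl.

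In simulated counts, 182 of 200 changed genes were recovered with 1 false call among 16988 genes, and 26 of 199 changed transcripts with 0 false calls among 41191. Most changed transcripts were thus missed, so that a transcript not called may still differ. Alternatives were DESeq2 1.42.0, its size factors, filterByExpr, no filter, limma 3.58.1 on log2(TPM + 1) and log2(TPM + 0.1), an FDR under 0.05, glmTreat, the replicate number as a block, another share, and leaving out each library. One of the genes closest in pattern to Mef2c is not reported here.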

Additional observations from a re-analysis of the deposited data

How the results depend on the processing

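Mef2a and Mef2c were called lower in all 13 alternatives tried for single genes, and Mef2d in 12 of them. With 1 library left out, the log2 fold change ranged from -1.99 to -1.63 for Mef2a, from -5.21 to -4.87 for Mef2c and from -1.76 to -1.39 for Mef2d (-1.57 and not called without NF-YAcKO replicate 2), and from -0.82 to 0.29 for Mef2b, which was positive without NF-YAcKO replicate 1. The number of Mef2 genes called lower was 2 to 3 with a library left out, 3 with the replicate block and 1 (Mef2c) with glmTreat. Calls lower in the lists ranged with a library left out from 4 to 6 regulators, from 15 to 19 targets and from 1 to 3 splicing regulators, and calls higher from 0 to 1 regulators (1 without NF-YAfl/fl replicate 3), 0 targets and from 0 to 2 splicing regulators. DESeq2, no filter and an FDR under 0.05 each called 4 splicing regulators lower and glmTreat 1, while DESeq2 and an FDR under 0.05 each called 1 higher. Over all genes, 1331 were called lower and 806 higher, against 510 and 97 with glmTreat, 704 and 231 with limma on log2(TPM + 1), 1067 and 361 on log2(TPM + 0.1), 2025 and 1163 at an FDR under 0.05, and 523 to 1684 and 177 to 890 with a library left out.

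Transcript calls depended most on the method. DESeq2 called 13 Mef2 transcripts lower, limma on log2(TPM + 1) 6, no filter 2 and the replicate block 0, against 1, and calls higher were 0 with the replicate block. With a library left out, 0 to 1 transcripts were called lower (1, NM_001170537.1, without NF-YAcKO replicate 1) and 0 higher. The cause was not tested. XM_006517130.2 had a positive log2 fold change with the replicate block (0.41) and without NF-YAfl/fl replicate 3 (0.37), and NM_001045484.2 of Mef2b without NF-YAcKO replicate 1 (0.33), with ranges of -1.56 to 0.37 and -0.81 to 0.33 when a library was left out.

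Exon shares, as the difference NF-YAcKO minus NF-YAfl/fl in percentage points, ranged with a library left out from -71.6 to -66.6 for Mef2a β, from -66.8 to -54.3 for Mef2d α2, from -34.9 to -24.3 for Mef2d β and from 0.362 to 5.42 for Mef2a α2, and the α1 shares mirror the α2 shares with this denominator. With all transcripts of the gene as the denominator, chosen after seeing the data, the differences were -44.5 for Mef2a β, -35.2 for Mef2d α2, 38.5 for Mef2d α1 and -16.7 for Mef2d β (-27.8 among transcripts of known structure). Mef2a α1 turned from -3.05 to 13.3 and Mef2a α2 moved from 3.05 to 7.23, both without overlap of the genotypes, and α1 no longer mirrored α2.

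Among named genes that were not called, the sign turned for Myod1 with limma (0.11 and 0.11), with the replicate block (0.20) and without NF-YAfl/fl replicate 3 (0.78), for Jun without that library (0.20), and for Mbnl1 without a filter (0.008), with the replicate block (0.027) and without NF-YAfl/fl replicate 2 (0.22). Of these alternatives, those for the splicing regulators and for single list genes were added after seeing the data. Same-numbered libraries correlated at 0.224, -0.116 and 0.052 in their deviations from the group means, not all over 0.1, so the numbers were not taken to pair libraries, and 1 of the 3 NF-YAcKO libraries did not correlate best with their own number. With a library left out, the log2 fold change ranged from -0.42 to 0.78 for Myod1, from -0.26 to 0.20 for Jun and from -0.22 to 0.22 for Mbnl1. Depth limits Mef2b, at 0 to 14 counts, and the Mef2c transcripts in NF-YAcKO.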
